A study of Sus scrofa with 6 samples.

Results

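The genes FGF1, FGF19, FGFR4, VEGFB, MDK and HBEGF of pig chromosome 2, which encode secreted growth factors or a receptor for one, were described in embryonic day 21 embryos. They were chosen by name, with no measured value in the rule, but with earlier results of these data known. Shares of all genes set beside them below are therefore a description. They are 6 of the 2422 chromosome 2 genes in the tables and of 30139 genes and unannotated transcripts in all. RNA came from 3 parthenogenetic (PA) and 3 control (CN) whole embryos, all labelled as Landrace x Yorkshire x Duroc (LYD) and collected at embryonic day 21. PA embryos, labelled parthenogenesis, grew from oocytes matured in vitro and activated by an electric pulse, carried maternal genomes only, and were moved to the oviducts of 2 surrogate gilts. CN embryos, labelled untreated, came from natural mating of 2 gilts, which the study's methods give as Landrace x Yorkshire with the boars' breed unstated. Maternal-only genomes, parental breed, oocyte culture, activation and transfer therefore cannot be told apart between the groups. The gilt of each embryo is not given, embryos of comparable size had been selected, and a p-value here measures the spread between embryos that may share a litter.

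Fibroblast growth factors (FGFs) are secreted proteins that bind tyrosine kinase receptors on the cell surface and switch on the RAS and MAP kinase cascade. FGF1 is the family member known for binding every FGF receptor, with heparan sulfate as a partner, whereas FGF19 travels in the blood and acts mainly through FGFR4 with the co-receptor beta-klotho, best known from the control of bile acid synthesis in liver. VEGFB is a relative of the vascular endothelial growth factor VEGFA that binds VEGF receptor 1 and neuropilin 1. MDK (midkine) is a small heparin-binding factor abundant in the midgestation embryo and the nervous system, and HBEGF (heparin-binding EGF-like growth factor) is a membrane protein whose shed part activates the EGF receptor and ERBB4.

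The 6 genes lay far apart on chromosome 2 of the Sscrofa11.1 genome. FGF19 (chr2:3583027-3586985, plus strand), VEGFB (chr2:7872873-7876149, minus strand) and MDK (chr2:16130787-16133791, minus strand) were nearest the start of the chromosome. FGFR4 (chr2:80841536-80853791), HBEGF (chr2:142102455-142115192) and FGF1 (chr2:144133846-144241345) followed, all on the minus strand. The annotation lists 17 transcripts for them, of which FGF1 has 6, MDK 4, FGFR4, VEGFB and HBEGF 2 each and FGF19 1. Every annotated protein of FGF1 has 155 residues, that of FGF19 219, that of FGFR4 800 and that of HBEGF 208. In VEGFB and MDK the choice of transcript changes the protein, and the reference sequence that makes the difference is shown for these 2 genes because the isoform shares below turn on it. The VEGFB protein has 207 residues where exon 6 starts at the upstream acceptor and 188 where it starts 101 bases later, and MDK has 165 residues with an extra coding exon of 66 bases and 143 without it. The first sequence gives the 101 extra bases of VEGFB (chr2:7874049-7874149, minus strand), preceded by the last 2 intron bases, and capitals mark the AG of the upstream acceptor and the AG of the downstream one. The second gives the extra MDK exon (chr2:16131469-16131534, minus strand) with 2 flanking intron bases on each side, and capitals mark the AG acceptor and the GT donor.
VEGFB: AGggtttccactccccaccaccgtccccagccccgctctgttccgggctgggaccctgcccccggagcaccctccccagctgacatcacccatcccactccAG
MDK: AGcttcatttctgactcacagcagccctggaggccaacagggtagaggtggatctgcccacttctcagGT

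The deposited tables gave an estimated read count and a TPM value (relative abundance, scaled for transcript length and to the same sum in each embryo) per transcript. Estimated counts summed to between 3100284 and 3276414 in CN and between 3360478 and 3573406 in PA, and 99.629% to 99.671% of the annotated counts lay on chromosome 2, so that the annotated part of TPM and CPM (counts scaled to the library total) is almost entirely of that chromosome. Transcripts absent from the annotation held 6.93% to 16.96% of each library. Nearly all of that was 1 transcript, which took 6.88% to 7.74% of the counts in CN and 8.44% to 16.93% in PA. Among cell type markers on chromosome 2, 6 of 7 kidney tubule genes and 3 of 7 muscle genes tested were lower in PA and 6 of 8 neural genes were higher at an adjusted p below 0.05, against 6.54% of all 1652 genes tested. Their summed TPM was 654.4 to 989 in CN and 81.98 to 231 in PA for kidney tubule, 1235 to 1370 and 649.9 to 800.1 for muscle, and 1387 to 1757 and 1843 to 2373 for neural genes. None of the 4 liver, 3 erythroid, 6 macrophage, 1 endothelial and 2 trophoblast genes tested passed, and no marker listed was at 0 counts in every embryo. The marker lists were chosen with earlier results of these data known, so these shares are a description and no independent test. In whole embryos, fewer cells of a type and less RNA per cell cannot be told apart, and the part of these markers in the results below was not tested.

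All 6 genes were measured in every embryo, and none differed between PA and CN at an adjusted p of 0.05 (edgeR's quasi-likelihood test, two-sided, Benjamini-Hochberg adjustment over 1652 genes). By that criterion 6.54% of all genes tested differed, and 2.91% also had an absolute log2 fold change above 1. Unadjusted p-values were below 0.05 for 4 of the 6 genes (FGF1, FGF19, FGFR4 and VEGFB), against 21.2% of all genes tested. FGF1 and VEGFB were lower in every PA embryo than in any CN embryo and FGF19 was higher in every one, on the scale of normalised CPM (corrected for library composition and transcript length). Groups failed to overlap in this way in 28.3% of all genes tested, 13.6% with PA lower and 14.7% with PA higher. The groups of FGF1, VEGFB and FGF19 did not overlap in TPM either, which held for 21.6% of all genes tested, 16.6% with PA lower and 5.02% with PA higher. FGFR4, MDK and HBEGF overlapped between the groups.

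**Figure D1:**
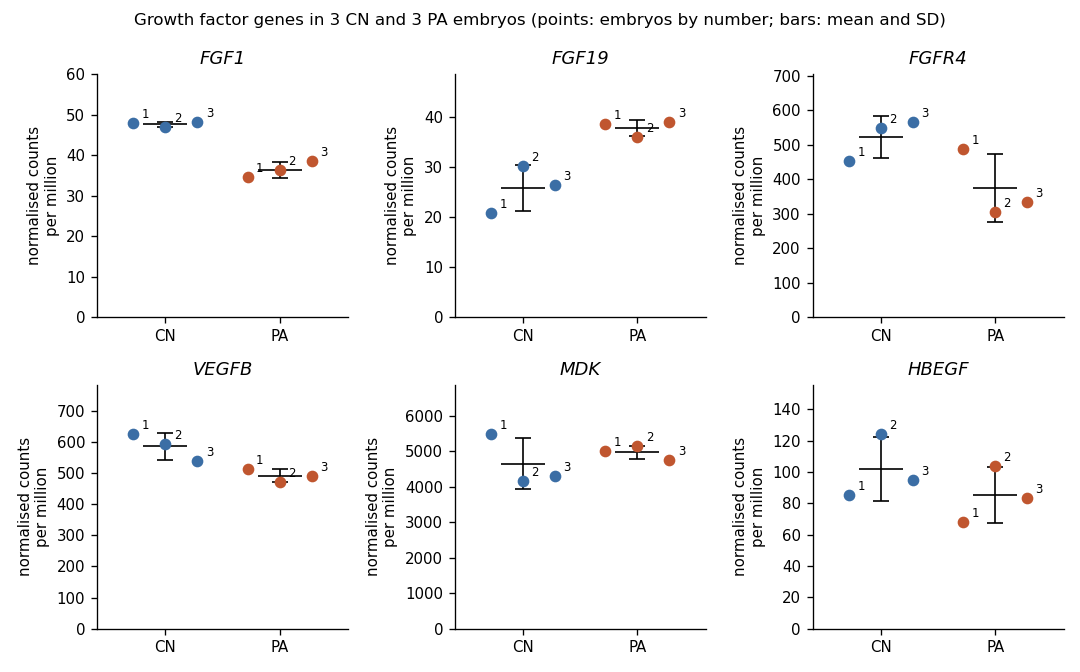
Normalised CPM (vertical axes, each from 0) of the 6 growth factor genes in the 3 CN and 3 PA embryos, with points numbered by embryo, long bars at the mean and whiskers of 1 SD. FGF1 and VEGFB lie lower in every PA embryo and FGF19 higher, whereas FGFR4, MDK and HBEGF overlap between the groups.

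FGF19, the endocrine ligand, had the largest positive difference of the 6 genes. Its normalised CPM came to 20.86, 30.08 and 26.44 in CN and 38.48, 35.95 and 38.86 in PA. The lowest PA embryo thus stood above the highest CN embryo, with a mean of 25.79 ± 4.64 in the controls against 37.76 ± 1.58 (SD, n = 3 each). The log2 fold change, PA over CN, was 0.55 (SE 0.19, 95% interval 0.11 to 0.98), a fold of 1.46, with an adjusted p of 0.136 from edgeR's quasi-likelihood test. Between 66 and 98 estimated counts per embryo in CN and 120 to 138 in PA stood behind these values. On the TPM scale FGF19 was 61.08 ± 15.8 in CN and 84.49 ± 8.68 in PA (SD, n = 3 each; exact permutation test, two-sided, p = 0.1, the smallest that 3 against 3 embryos can give). The difference in mean log2 TPM was 0.50, and 0.28 without CN embryo 1, the lowest embryo. Of all genes tested, 95.3% had a lower log2 fold change. Over the alternatives tried the edgeR log2 fold change ran from 0.43 to 0.69 with adjusted p from 0.123 to 0.265.

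FGF1 had a log2 fold change of the opposite sign, which did not pass the test. Its normalised CPM came to 47.96, 46.95 and 48.13 in CN and 34.55, 36.34 and 38.46 in PA. The 3 CN embryos lay almost on top of each other (47.68 ± 0.639, SD, n = 3), and the PA embryos were all lower, at 36.45 ± 1.96. The log2 fold change was -0.39 (SE 0.15, 95% interval -0.72 to -0.05; adjusted p = 0.172 by edgeR's quasi-likelihood test), and adjusted p ran from 0.158 to 0.476 over the alternatives. FGF1 had the lowest level per length of the 6 genes, with TPM of 21.2 ± 1.63 in CN and 15.52 ± 2.17 in PA (SD, n = 3 each; exact permutation p = 0.1), from 145 to 160 and 116 to 143 estimated counts. Opposite directions in these 2 ligands gave a within-embryo ratio of FGF19 to FGF1 TPM of 2.292, 3.377 and 2.895 in CN and 5.869, 5.214 and 5.325 in PA. The ratio was thus higher in every PA embryo, by a fold of 1.94 (exact permutation test, two-sided, p = 0.1), although this ratio was picked after the values were seen.

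FGFR4, the receptor through which FGF19 mainly signals, was the only receptor among the 6 genes and the only one whose call depended on the processing. Its normalised CPM came to 453.5, 549 and 565.3 in CN and 487.4, 305.7 and 333 in PA. PA embryos 2 and 3 were below all CN embryos, whereas PA embryo 1 was above CN embryo 1. The means were 522.6 ± 60.4 and 375.4 ± 98 (SD, n = 3 each), and the log2 fold change was -0.48 (SE 0.18, 95% interval -0.88 to -0.07; adjusted p = 0.157 by edgeR's quasi-likelihood test). Without PA embryo 1 it was -0.70 with an adjusted p of 0.0194. With library totals in place of normalisation factors it was -0.55 with an adjusted p of 0.0461, and without the expression filter -0.48 with 0.00117, while the other alternatives kept the adjusted p above 0.05 and up to 0.4. In TPM the receptor stood at 292.4 ± 55.2 in CN and 196.9 ± 37.5 in PA (SD, n = 3 each; exact permutation p = 0.2).

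The 4 liver marker genes on chromosome 2 (F2, C3, BHMT and SERPING1) were likewise highest of PA in embryo 1. Their summed TPM was 7499 in PA embryo 1, 5247 in PA embryo 2 and 4990 in PA embryo 3, and 5965, 6778 and 6907 in CN embryos 1 to 3. The order in CN depended on the gene, since BHMT and SERPING1 were lowest in CN embryo 1 as FGFR4 was, whereas F2 was lowest in CN embryo 2 and C3 highest in CN embryo 1. The liver sum of PA embryo 1 was above every CN embryo, and its FGFR4 level was below CN embryos 2 and 3. The gene whose pattern over the 6 embryos was most like FGFR4 was SAA4, a serum amyloid A family gene known from liver, at 9.173, 14.05 and 20.45 normalised CPM in CN and 10.78, 0 and 0 in PA. SAA4 belongs to a family of close copies between which reads may be divided. Whether liver content contributes to the FGFR4 values was not tested.

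Within each embryo FGF19 stood closer to the level of its receptor in PA. The ratio of FGF19 to FGFR4 TPM was 0.194, 0.231 and 0.197 in CN and 0.333, 0.496 and 0.492 in PA. No PA embryo overlapped a CN embryo, and the mean ratio was 0.207 ± 0.021 in CN and 0.44 ± 0.093 in PA (SD, n = 3 each), a fold of 2.09 (exact permutation test, two-sided, p = 0.1). The ratio was chosen after the values of both genes were seen, and PA embryo 1 was the nearest to CN in it. Leaving out each embryo in turn kept the log2 difference of the ratio between 0.97 and 1.26. Since both genes are read in the same embryo, the ratio does not depend on how libraries are scaled to each other.

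**Figure D2:**
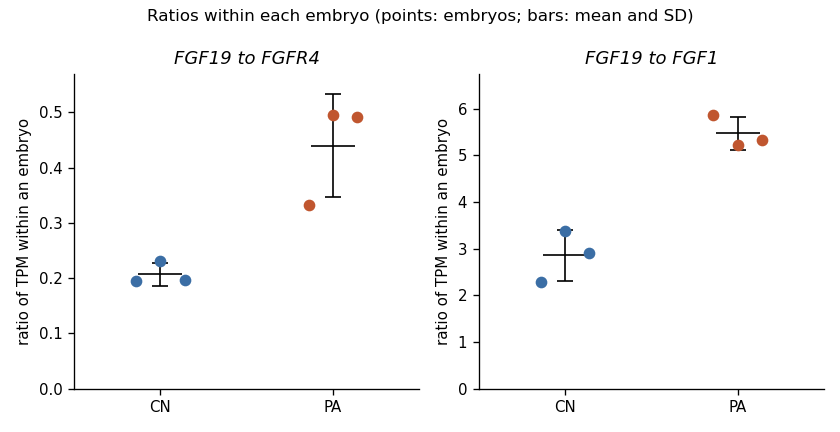
Ratio of TPM within each embryo for FGF19 to FGFR4 (left) and FGF19 to FGF1 (right), both axes from 0, with a point per embryo, long bars at the mean and whiskers of 1 SD. The 3 PA embryos lie above the 3 CN embryos in both ratios, and PA embryo 1, at 0.333, is the lowest PA point for FGF19 to FGFR4.

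VEGFB, the VEGF receptor 1 ligand, had the most precisely estimated difference of the 6 genes, which did not pass the test. Its normalised CPM came to 627.9, 594.3 and 540 in CN and 514.2, 471.8 and 492.1 in PA. The lowest CN embryo was above the highest PA embryo, with means of 587.4 ± 44.3 and 492.7 ± 21.2 (SD, n = 3 each). The log2 fold change was -0.25 (SE 0.09, 95% interval -0.45 to -0.06; adjusted p = 0.13 by edgeR's quasi-likelihood test), and adjusted p was 0.0858 to 0.328 over the alternatives. The interval was the narrowest of the 6 genes. Between 1575 and 1988 estimated counts per embryo stood behind these values. TPM was 1021 ± 80 in CN and 818.1 ± 61.6 in PA (SD, n = 3 each; exact permutation p = 0.1). The difference in mean log2 TPM was -0.32, and -0.21 once TPM was rescaled without the 10 most abundant transcripts. Of the 1195 exonic bases of VEGFB, 122 are shared with TRPT1 on the opposite strand, and reads there cannot be told apart because the libraries kept no strand.

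Both VEGFB proteins had transcripts in every embryo, and no difference in their shares was found. The 188-residue form, which lacks the 101 bases shown above, took 30.07%, 28.88% and 25.82% of VEGFB counts in CN and 24.03%, 26.74% and 27.18% in PA. The groups overlapped, and the mean share of 28.26% ± 2.19 in CN and 25.99% ± 1.71 in PA (SD, n = 3 each) gave an exact permutation p of 0.3. The 207-residue form was thus the main one in all 6 embryos. In a test across 3487 transcripts the log2 fold change was -0.37 (SE 0.14) for the transcript of the shorter form and -0.19 (SE 0.08) for that of the longer form, with adjusted p of 0.471 and 0.501 by edgeR's quasi-likelihood test. None of the 11 transcripts of the 6 genes that passed the filter had an adjusted p below 0.05 in that test, against 0.258% of all transcripts tested.

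MDK was by far the most abundant of the 6 genes. It ranked 15 by mean TPM among the 2422 genes of chromosome 2, with 12080 ± 847 TPM in CN and 12380 ± 837 in PA (SD, n = 3 each; exact permutation p = 1). The difference in mean log2 TPM was 0.04, 0.15 once TPM was rescaled without the 10 most abundant transcripts, and between 0.001 and 0.094 with each embryo left out. Its normalised CPM came to 5494, 4167 and 4298 in CN and 4998, 5141 and 4756 in PA. CN embryo 1 was the highest and the other CN embryos the lowest, so that the PA embryos lay inside the CN range. The log2 fold change was 0.09 (SE 0.12, 95% interval -0.17 to 0.36; adjusted p = 0.69 by edgeR's quasi-likelihood test). Without CN embryo 1 it was 0.24 (SE 0.07, adjusted p = 0.0919), and with each of the other embryos left out it lay between 0.03 and 0.14. It rested on 13580 to 17401 estimated counts per embryo. Of the 1520 exonic bases of MDK, 294 are shared with CHRM4 on the opposite strand, and reads there cannot be told apart either.

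The extra MDK exon was used rarely. Transcripts that hold the 66 bases shown above took 4.56%, 3.85% and 3.96% of MDK counts in CN and 3.72%, 4.38% and 4.24% in PA. The groups overlapped, at a mean of 4.12% ± 0.38 in CN and 4.11% ± 0.35 in PA (SD, n = 3 each; exact permutation p = 1). The 143-residue protein was therefore the main annotated product in each embryo, and its leading transcript alone took 94.58% to 95.52% of the counts.

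HBEGF, the EGF receptor ligand, overlapped between the groups. Its normalised CPM came to 85.4, 124.5 and 95.03 in CN and 68.02, 104.1 and 83.58 in PA. Embryo 2 was the highest in each group and the means of 101.7 ± 20.4 and 85.24 ± 18.1 (SD, n = 3 each) differed by less than their spread. The log2 fold change was -0.25 (SE 0.20, 95% interval -0.71 to 0.21; adjusted p = 0.516 by edgeR's quasi-likelihood test), from 237 to 370 estimated counts per embryo. With each embryo left out it ran from -0.42 without PA embryo 2 to -0.07 without CN embryo 2, and it was -0.10 without PA embryo 1. Much of that value rested on how reads were divided between its 2 transcripts. The short coding-only transcript NM_214299.1 was given 0, 7.07% and 2.47% of HBEGF counts in CN and 0 in each PA embryo. Without the length offset the log2 fold change was -0.04, and that of the long transcript XM_021081491.1 alone was 0.01 (SE 0.19, 95% interval -0.47 to 0.48; adjusted p = 0.994 by edgeR's quasi-likelihood test).

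Transcripts of FGF1 and FGFR4 could not be followed singly. FGF1 transcript XM_021084948.1 was given 32.42%, 68.12% and 42.65% of the gene's counts in CN and 0, 68.47% and 0 in PA. Its share ranged from 0 to over 68% within PA alone (exact permutation p = 0.4), and its log2 fold change of -1.48 had an SE of 2.04. All FGF1 transcripts with counts encode the same 155 residues, so that the split leaves the protein unchanged. FGFR4 was assigned almost wholly to XM_003123682.5, with 0 to 3.63% on XM_013987555.2.

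**Figure D3:**
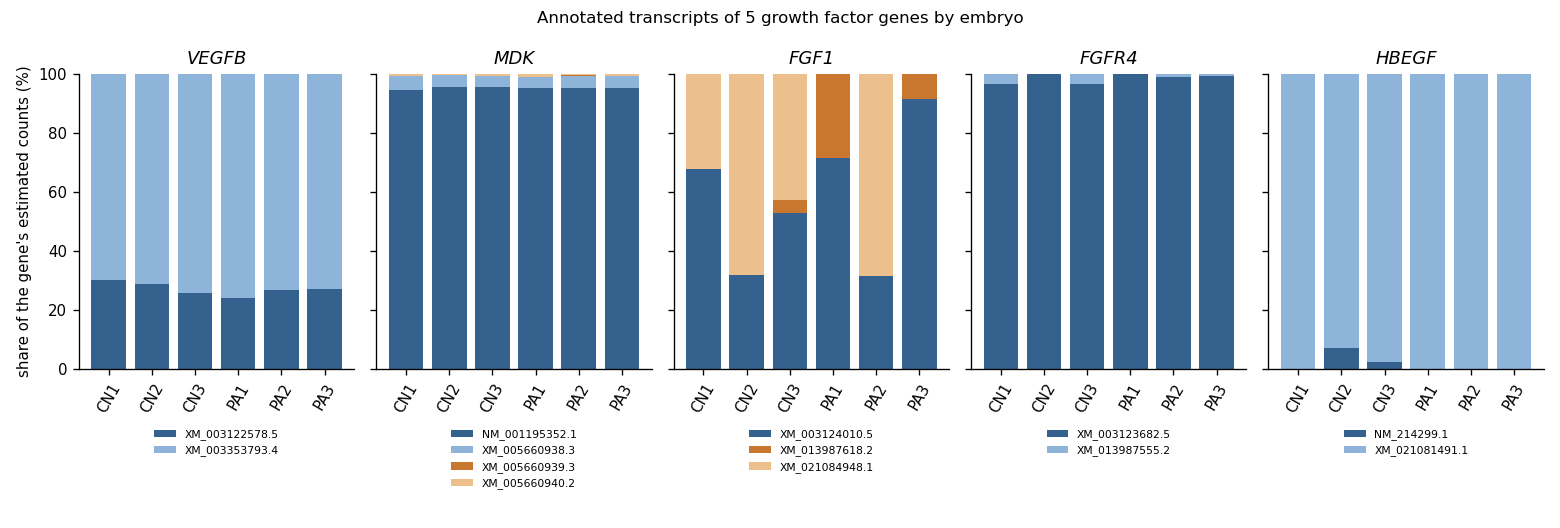
Share of each gene's estimated counts (vertical axis, percent) given to each annotated transcript with a count, as stacked bars for the 6 embryos, in VEGFB, MDK, FGF1, FGFR4 and HBEGF. VEGFB and MDK shares are near constant between embryos, FGF1 shares swing between 0 and over 68% within a group, and the short HBEGF transcript has counts in CN embryos 2 and 3 alone.

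Levels per length differed widely among the 6 genes. Mean TPM over the 6 embryos was 12230 for MDK, 919.6 for VEGFB, 244.7 for FGFR4, 72.79 for FGF19, 66.59 for HBEGF and 18.36 for FGF1. The order of FGF19 and HBEGF depended on the group, since HBEGF was above FGF19 in each CN embryo and below it in each PA embryo. The ratio of FGF19 to HBEGF TPM was 0.793, 0.784 and 0.903 in CN and 1.836, 1.121 and 1.509 in PA, which makes a fold of 1.77 (exact permutation p = 0.1), and was chosen after the values were seen. Against the long HBEGF transcript alone it was 0.793, 1.109 and 1.029 in CN, so that the exchange of order did not hold in all CN embryos.

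**Figure D4:**
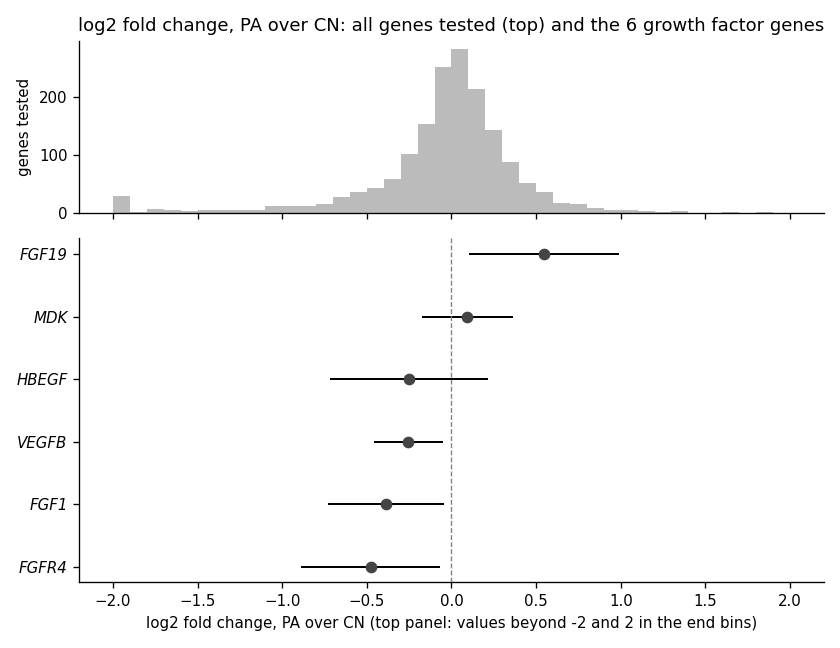
Log2 fold change, PA over CN (horizontal axis), of all 1652 genes tested as a histogram in bins of 0.1 (top; values beyond -2 and 2 are in the end bins) and of the 6 growth factor genes with 95% intervals (bottom). The intervals of FGF1, FGFR4, VEGFB and FGF19 do not reach 0 and those of MDK and HBEGF do, and no gene passed the adjusted threshold.

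Among 1529 other tested chromosome 2 genes, those most like each growth factor gene over the 6 embryos were found by Pearson's r of log2 normalised CPM, as a description in which the points share the group difference and the library scaling. FGF1 was most like LOC110259223 (r = 0.989) and COL4A3BP (r = 0.989), a ceramide transporter gene. LOC110259223 was nearly confined to CN, at 129.8, 200.5 and 262.9 normalised CPM against 0.309, 0.590 and 1.72 in PA, so that its r reflects the split between groups. FGF19 was most like INTS5 (r = 0.987), a subunit of the Integrator complex, and LOC106509445 (r = 0.984). FGFR4 followed SAA4 (r = 0.978). VEGFB followed SDHAF2 (r = 0.991), a succinate dehydrogenase assembly factor, and CCDC151 (r = 0.991), a gene of motile cilia. MDK followed PAIP2 (r = 0.996), a regulator of translation, and TIMM29 (r = 0.988), part of the mitochondrial import machinery. HBEGF followed ARHGAP26 (r = 0.981) and LOC106509334 (r = 0.947).

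The other genes of these signalling systems were read from lists of 233 genes, of which 58 lie on chromosome 2 and 49 passed the expression filter. One of the 49, IGF2, passed both thresholds, and it was lower in PA, where 2.78% of all genes tested were lower by that rule. The median log2 fold change of the 49 was 0.05, beside 0.02 for all genes tested, with 26 positive and 23 negative. IGF2, the paternally expressed insulin-like growth factor, fell from 17610 ± 2810 TPM in CN to 390.9 ± 138 in PA (SD, n = 3 each), a log2 fold change of -5.41 (SE 0.29; adjusted p = 4.29e-05 by edgeR's quasi-likelihood test). In 7 of the 49 genes every PA embryo was higher, where 14.7% of all genes tested were, and in 4 every PA embryo was lower, where 13.6% were.

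Other FGF ligands on the chromosome were sparse. FGF22 was at 17.89 ± 3.38 TPM in CN and 15.3 ± 5.58 in PA (SD, n = 3 each; log2 fold change -0.16, SE 0.29, adjusted p = 0.794). FGF3 had 0 to 3 counts per embryo and FGF4 0 to 6, and neither was tested. No FGF receptor or co-receptor of the list other than FGFR4 lies on chromosome 2. Of 5 FGF feedback and target genes there, 4 were tested and none passed, with a median log2 fold change of 0.13. CCND1, the cyclin that drives entry into the cell cycle, had a log2 fold change of 0.16 (SE 0.08, adjusted p = 0.316), and EGR1, an immediate early transcription factor, -0.11 (SE 0.37, adjusted p = 0.895). EGR1 ranged from 95.86 to 346.8 TPM within CN, wider than its range of 150.1 to 238.1 in PA.

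Downstream, all 10 genes of the RAS and MAP kinase cascade on the chromosome were tested, none passed, and their median log2 fold change was -0.01. MAP2K2, the kinase above ERK, was at 727.8 ± 49.7 TPM in CN and 688.4 ± 55.9 in PA (log2 fold change -0.01, SE 0.07, n = 3 each), and HRAS at 336.4 ± 30.9 and 299.3 ± 32.7 (log2 fold change -0.10, SE 0.09). None of the 4 heparan sulfate synthesis genes passed, and their median was 0.03, with EXT2, a chain polymerase, at -0.04 (SE 0.08) and B3GAT3, a linker enzyme, at 0.10 (SE 0.08).

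In the lists drawn up around the other factors no tested gene passed. None of the receptors named above for VEGFB and HBEGF is among the chromosome 2 genes of these lists, so those receptors were not read. The list around VEGF and PDGF held 5 (FLT4, PDGFRB, CSF1R and the angiopoietin-like genes ANGPTL4 and ANGPTL6), with a median log2 fold change of -0.07. The list around the EGF family held NRG2 and 3 tetraspanins (CD81, CD82 and CD151), which are membrane proteins outside that family, with a median of -0.07. The list around midkine held LRP4 and LRP5, with a median of 0.09. PDGFRB, a PDGF receptor of perivascular cells, had a log2 fold change of 0.15 (SE 0.16), and ANGPTL4, a secreted inhibitor of lipoprotein lipase, 0.34 (SE 0.32). NRG2, a neuregulin ligand of ERBB receptors and the only EGF family gene of its list on the chromosome, named after its values were seen, was at 3.482 ± 0.614 TPM in CN and 4.275 ± 0.537 in PA (SD, n = 3 each; log2 fold change 0.37, SE 0.23, adjusted p = 0.409), from 28 to 47 counts per embryo, with each PA embryo above CN in normalised CPM. CD81 had the highest level of that list at 4613 ± 146 TPM in CN and 4537 ± 121 in PA (SD, n = 3 each; log2 fold change 0.05, SE 0.08), and CD151 was at -0.25 (SE 0.08, adjusted p = 0.109). LRP5 and LRP4, low density lipoprotein receptor family genes, were at -0.03 (SE 0.11) and 0.21 (SE 0.13).

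Of the 8 genes of the TGF-beta superfamily none passed, and the median log2 fold change was 0.10. TGFBI, a matrix protein induced by TGF-beta, was at 0.28 (SE 0.08, adjusted p = 0.0901) and LTBP3, which holds latent TGF-beta in the matrix, at 0.09 (SE 0.10). GDF15, a stress-induced secreted factor named here after its values were seen, was at 19, 37 and 32 counts in CN and 93, 103 and 36 in PA. PA embryos 1 and 2 stood above CN and PA embryo 3 within it, and the log2 fold change was 1.36 (SE 0.44, adjusted p = 0.114 by edgeR's quasi-likelihood test). It passed with DESeq2 (1.36, adjusted p = 0.0369), without the expression filter (1.36, 0.000334) and without PA embryo 3 (1.74, 0.019). Of the 11 other secreted factors and cytokines tested, IGF2 alone passed, the median was -0.07, and CXCL14, a chemokine, was at 0.37 (SE 0.10, adjusted p = 0.067). ADM, the vasodilator peptide adrenomedullin, was at 54.46, 54.82 and 55.61 TPM in CN and 61.62, 162.8 and 57.38 in PA, with a log2 fold change of 0.84 (SE 0.39, adjusted p = 0.267). PA embryo 2 alone stood far from the others in it. CSF2, IL4 and IL9 had 0 counts in all 6 embryos, which allows up to 0.84 to 0.968 CPM at 3 counts per embryo, counting error only.

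**Figure D5:**
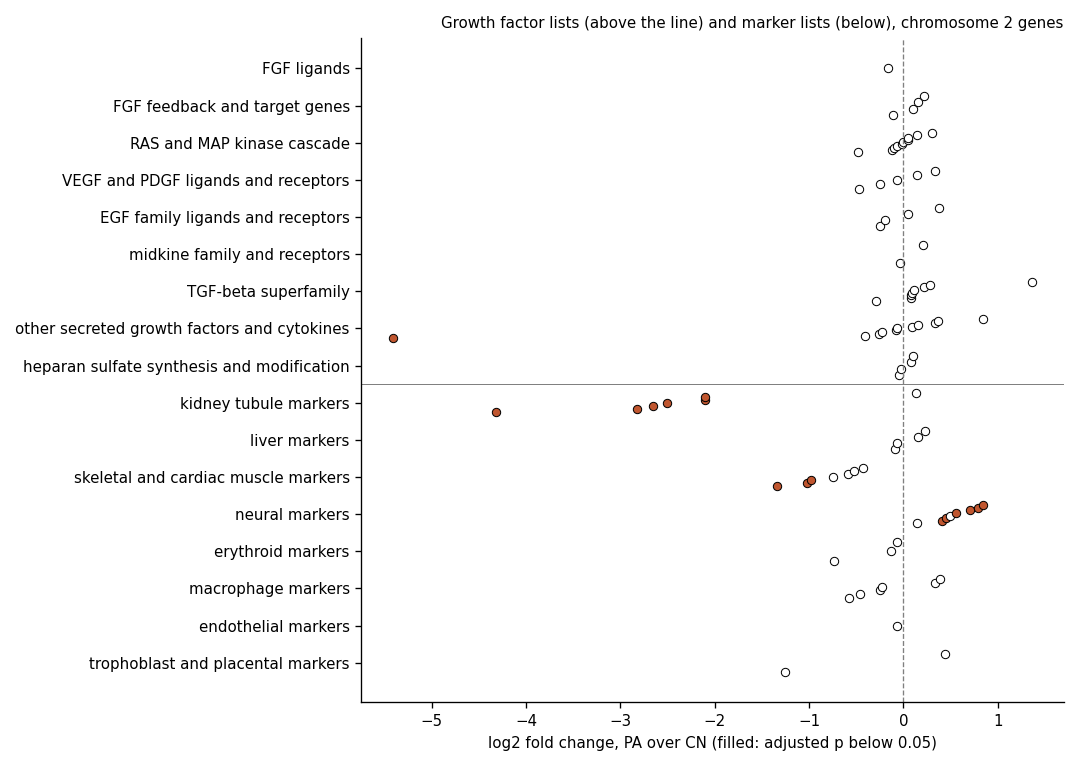
Log2 fold change, PA over CN (horizontal axis), of each tested chromosome 2 gene of the growth factor lists (above the line, the 6 growth factor genes left out) and of cell type marker lists (below), with filled points at an adjusted p below 0.05. IGF2, at -5.41, is the only filled point above the line, whereas kidney tubule and muscle markers have filled points below 0 and neural markers above 0.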

How the data were processed

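RNA of 6 whole embryos (3 PA, 3 CN) had been sequenced by the authors from poly(A) libraries without strand information and quantified with Salmon 1.3.0 in mapping-based mode. The authors deposited estimated counts per transcript, which need not be whole numbers and are not normalised, TPM, scaled within each embryo, and effective lengths. STAR 2.7.5, Picard and SAMtools are also in the submitters' processing notes. Transcripts were joined to genes with NCBI Annotation Release 106 of Sscrofa11.1, the source of the sequences. A transcript absent from it was kept as its own gene. Why nearly all counts lie on chromosome 2 is not given in the sources used here.

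Gene sums were rounded and tested in edgeR 4.0.16 (R 4.3.3) with TMM factors, an average transcript length offset, filterByExpr (minimum count 10, minimum total 15), robust dispersion and the two-sided quasi-likelihood test, PA over CN, with Benjamini-Hochberg adjustment. Standard errors were derived from the log2 fold change and its F statistic. The call used an adjusted p of 0.05, and the study's absolute log2 fold change of 1 where stated. TPM, as log2(TPM + 0.1), and shares were compared by exact permutation, and likeness used log2(normalised CPM + 0.5). Joins used Python 3.11.15 with pandas 2.3.3, and the procedure was tested on simulated data.

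The genes and lists were chosen with earlier results of these data known. Named were the 6 genes, the 2 most like each, every listed pathway gene with an adjusted p below 0.05 and beyond those the 2 of each list with the highest mean TPM. Others (GDF15, NRG2 and list members named without values) were named after the data were seen. One gene that this rule names is not reported here. Embryos of a group differed by a chi-square per degree of freedom of 5.19 to 83.8, so no library appeared in duplicate. Alternatives were DESeq2 1.42.0, library totals without TMM factors, leaving out the length offset or the expression filter, a minimum of 10 counts per embryo, the replicate block, chromosome 2 genes alone, leaving out each embryo, and for TPM a pseudocount of 1 or rescaling without the 10 most abundant transcripts. Those without the most abundant transcript, on single transcripts and on the FGF19 to FGFR4 ratio were added after the data were seen.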

Additional observations from a re-analysis of the deposited data

How the results depend on the processing

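Over 14 alternatives each, the log2 fold changes of the 6 growth factor genes kept their direction, and the call changed for FGFR4 alone, under 3 of them. The permutation tests of TPM cannot reach 0.05 and say nothing about stability. The number of genes past both thresholds was 48, 77 without the expression filter and 34 to 52 with each embryo left out. FGFR4 passed with library totals (-0.55), without the expression filter (-0.48) and within the range of -0.70 to -0.35 with each embryo left out only without PA embryo 1. Listed pathway genes past both thresholds numbered 1, and 2 with DESeq2, without the expression filter and at the upper end of 1 to 2 with each embryo left out. On TPM rescaled without the 10 most abundant transcripts, the log2 ratio rose in all 6 genes. It was -0.34 for FGF1 (-0.45 as deposited), 0.61 for FGF19 (0.50) and -0.46 for FGFR4 (-0.57). For VEGFB it was -0.21 (-0.32), for MDK 0.15 (0.04) and for HBEGF -0.213 (-0.325). The rescaling multiplies every gene of an embryo by the same factor, so the shift is not particular to any of them. The sign of 4 transcripts changed, none past the threshold: with the replicate block HBEGF XM_021081491.1 (-0.014) and FGF1 XM_003124010.5 (-0.04), and with each embryo left out HBEGF XM_021081491.1 (-0.175 to 0.134), FGF1 XM_003124010.5 (-0.373 to 0.384), MDK XM_005660938.3 (-0.097 to 0.231) and MDK XM_005660940.2 (-0.334 to 0.486).

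The labels give both groups the same replicate numbers. Deviations of same-numbered embryos correlated at 0.254, 0.122 and 0.0425 over 1652 genes. Differently numbered embryos were not compared, so these values cannot decide whether the numbers pair the embryos. With the replicate block 43 genes passed and no call of the 6 growth factor genes changed, with log2 fold changes of -0.39 for FGF1, 0.56 for FGF19, -0.50 for FGFR4, -0.25 for VEGFB, 0.10 for MDK and -0.26 for HBEGF. With 3 embryos per group, permutation cannot reach p below 0.1. FGF19 and FGF1 rest on 66 to 160 counts per embryo, and litter cannot be told apart from embryo.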
